A study of Mus musculus with 9 samples.

Results

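Sprouty, Spred and dual-specificity phosphatase genes (Spry1, Spry2, Spry4, Spred1, Spred2, Dusp4, Dusp5 and Dusp6), which encode inhibitors in the FGF pathway, were examined together with Etv4 and Etv5, which encode ETS transcription factors at its end. These 10 genes were chosen by name, with earlier results of these data known. All 28 probe sets annotated to 1 of them alone were taken, out of 18193 genes and 45037 probe sets on mouse arrays. Cells came from interlimb somites of embryos at embryonic day 9.5 and were sorted by GFP, in 3 groups of 3 samples. PAX3-FKHR/GFP cells were GFP positive and had PAX3-FKHR, the fusion of PAX3 with the forkhead factor FKHR found in rhabdomyosarcoma, on 1 Pax3 allele and GFP on the other, so that no intact Pax3 allele was left. GFP/+ cells were GFP positive cells with GFP on 1 Pax3 allele and an intact Pax3 on the other. GFP- cells were GFP negative cells of the same region, and their Pax3 genotype is not in the labels. The study's account of its comparisons takes them from GFP/+ embryos, whereas the groups it lists for hybridization include wild-type embryos, so their genotype is unclear. Both GFP positive groups thus carried 1 copy of the GFP allele, which reports the Pax3 locus, and Cre under the ubiquitous Pgk promoter had switched on the PAX3-FKHR allele. Each sample was a pool of tissue from many embryos on a mixed C57BL6 and DBA2 background, and the dissected tissue could hold Pax3 positive neural crest.

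FGF ligands bind receptor tyrosine kinases, which pass the signal through RAS to the kinase ERK. ERK signalling switches on its own inhibitors, so that transcripts of Sprouty, Spred and ERK phosphatase genes are commonly read as a record of the signal. Etv4 and Etv5 are transcribed where FGF acts in the embryo. In the somite, FGFs are made in the myotome, next to the Pax3 positive progenitors of the dermomyotome.

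With PAX3-FKHR, 5 of the 10 genes were called higher and 0 lower than in GFP/+ cells. Spry1 and Etv5 stood furthest apart, at 3.08-fold and 2.99-fold, followed by Dusp4 at 1.87-fold, Dusp5 at 1.73-fold and Etv4 at 1.42-fold. Calls required an adjusted p under 0.05 (limma, Benjamini-Hochberg over all probe sets) together with an absolute log2 difference of at least 0.5, which is 1.41-fold. Over all genes 1.31% were called higher and 0.715% lower by the same rule. All 10 genes had each PAX3-FKHR/GFP sample above each GFP/+ sample, which held for 7.67% of all genes. Their median log2 difference was 0.51, against -0.001 over all genes. No member reached an unadjusted p under 0.05 in the lower direction in limma. The local pooled error test named in the study's methods, rewritten here and run without absence calls, called 4 higher and 0 lower. Values are given below as log2 expression after RMA, for the brightest probe set of each gene, and differences between groups are on the same log2 scale.

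**Figure D1:**
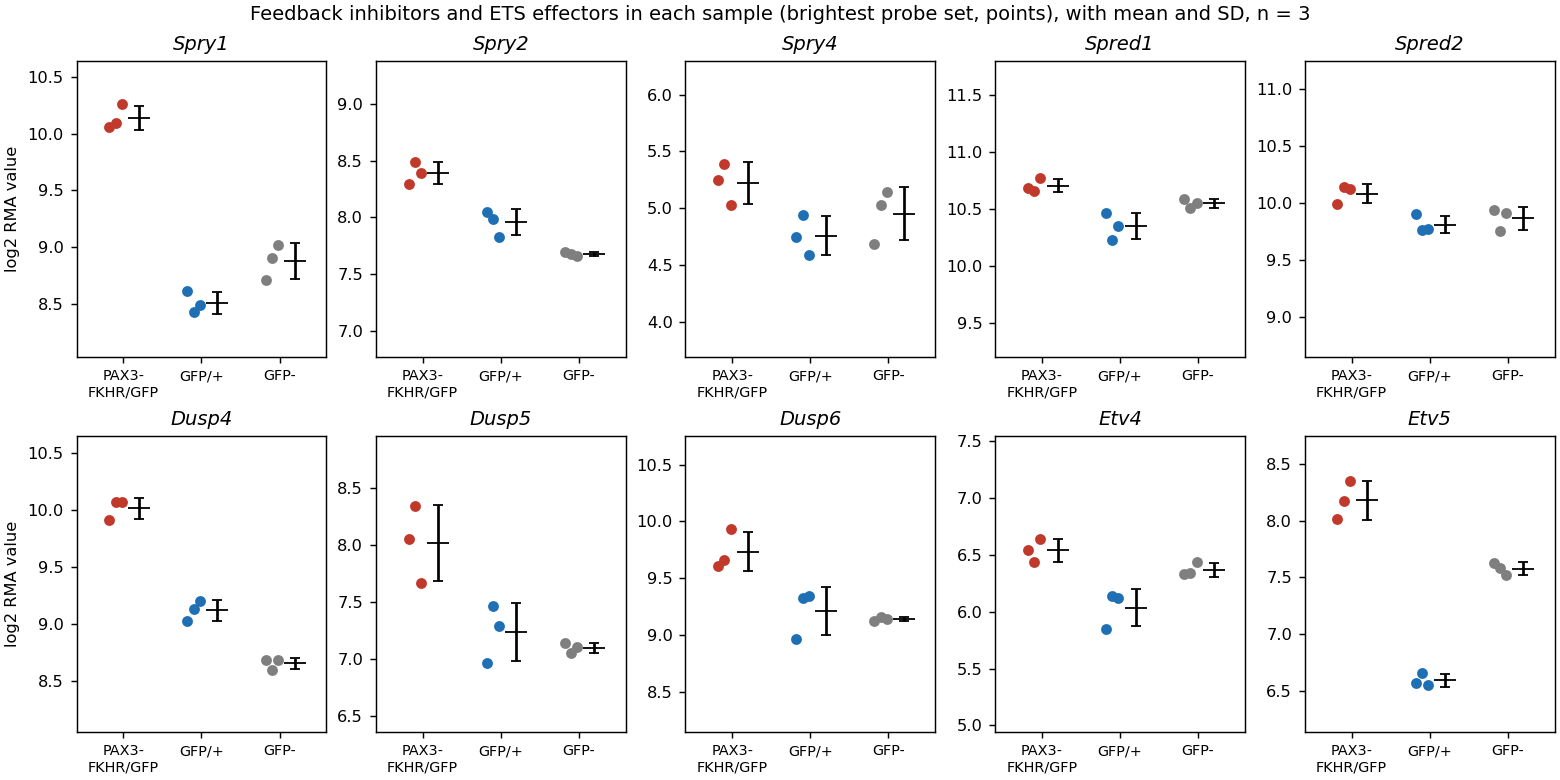
Log2 RMA values (vertical axes, each spanning the same range of log2 units) of the 10 genes in PAX3-FKHR/GFP, GFP/+ and GFP- samples (points), with the mean and SD of each group (bars, n = 3). All 10 genes have their 3 PAX3-FKHR/GFP points above the 3 GFP/+ points, with Spry1 at 10.06 to 10.26 against 8.43 to 8.62.

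RefSeq promoter windows of the mouse build GRCm38.p6 were matched by symbol to 7 of the genes, Spry1, Spry2, Spred1, Spred2, Dusp5, Dusp6 and Etv5. Any member window on a single chromosome was left out of this match, whereas the counts over all windows kept every chromosome. Etv5 had a pair of windows, which makes 8 in all. Each holds 300 bases, 250 before and 50 after a gene start. Windows are shown for Spry1, Dusp5 and Etv5, the genes called higher with PAX3-FKHR that had one. Capitals mark GGAAGT, the core that ETS factors bind, the GC box GGGCGG and the CCAAT box, on either strand.
Spry1 chr3:37639697-37639996 (plus strand): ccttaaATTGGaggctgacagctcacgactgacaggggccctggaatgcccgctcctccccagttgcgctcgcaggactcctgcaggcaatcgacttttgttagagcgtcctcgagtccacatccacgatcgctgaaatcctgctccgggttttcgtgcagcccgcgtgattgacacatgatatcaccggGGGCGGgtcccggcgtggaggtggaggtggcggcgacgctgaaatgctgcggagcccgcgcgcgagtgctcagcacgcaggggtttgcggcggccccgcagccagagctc
Dusp5 chr19:53528895-53529194 (plus strand): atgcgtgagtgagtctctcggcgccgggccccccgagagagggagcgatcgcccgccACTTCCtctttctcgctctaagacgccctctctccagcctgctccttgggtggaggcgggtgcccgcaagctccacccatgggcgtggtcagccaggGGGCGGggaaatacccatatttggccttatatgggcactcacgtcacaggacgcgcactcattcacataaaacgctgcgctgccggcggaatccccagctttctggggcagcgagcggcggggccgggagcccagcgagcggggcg
Etv5 first window chr16:22439521-22439820 (minus strand): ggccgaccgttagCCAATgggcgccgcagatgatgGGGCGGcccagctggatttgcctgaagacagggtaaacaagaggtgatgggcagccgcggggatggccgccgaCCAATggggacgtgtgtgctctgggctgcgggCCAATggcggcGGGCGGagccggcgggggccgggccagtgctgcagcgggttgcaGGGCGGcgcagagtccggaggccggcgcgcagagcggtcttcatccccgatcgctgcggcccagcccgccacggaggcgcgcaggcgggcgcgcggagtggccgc
Etv5 second window chr16:22438319-22438618 (minus strand): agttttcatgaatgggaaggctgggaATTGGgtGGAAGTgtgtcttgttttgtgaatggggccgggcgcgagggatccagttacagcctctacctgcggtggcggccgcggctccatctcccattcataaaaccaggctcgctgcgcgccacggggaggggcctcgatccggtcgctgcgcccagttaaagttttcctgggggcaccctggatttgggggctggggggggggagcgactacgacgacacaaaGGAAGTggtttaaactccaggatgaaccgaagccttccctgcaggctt
GGAAGT lay in 3 of the 8 windows, against 23.8% of all 32851 promoter windows of this length. In Dusp5 it began at base -193 from the start, on the other strand, and in the second Etv5 window at -217 and 3. Spred2 held the remaining match. The longer ETS site CCGGAAGT, which contains GGAAGT, was in 0 of the 8 windows and 3.89% of all. GTCACG, part of sites bound by the PAX3 paired domain, and TAATTA, a site of homeodomains such as that of PAX3, were each in 0 of 8, against 8.22% and 5.29% of all windows. GGGCGG and CCAAT were each in 5 of 8, against 35.7% and 37.4%. A match is a stretch of letters, and none was tested as a binding site.

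Among the inhibitors of the RAS to ERK step, Spry1 changed and its relatives Spry2, Spry4, Spred1 and Spred2 did not pass the call in their brightest probe sets. Sprouty proteins are induced by receptor tyrosine kinase signals and dampen them inside the cell. Spry1 had log2 values of 10.06, 10.09 and 10.26 in PAX3-FKHR/GFP cells, against 8.62, 8.43 and 8.49 in GFP/+ cells, and 8.71, 8.91 and 9.02 in GFP- cells. The PAX3-FKHR/GFP samples lay far above both other groups, which did not overlap each other either. The log2 difference from GFP/+ was 1.62 ± 0.088 (SE, adjusted p = 7e-06), with a 95% interval of 1.43 to 1.82. Spry1 had 1 probe set annotated to it alone, so no other probe set was read for it.

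Spry2 values were 8.29, 8.49 and 8.39 in PAX3-FKHR/GFP cells, against 8.05, 7.99 and 7.83 in GFP/+ cells, and 7.70, 7.68 and 7.66 in GFP- cells. The groups stood in that order without overlap. The difference between the GFP positive groups was 0.43 (SE 0.089, adjusted p = 0.0393), which passed the p but not the fold limit. A dimmer Spry2 probe set differed by -0.02, with a 95% interval of -0.24 to 0.19, and the mean over both gave 0.203.

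Spry4 was dim. Its brightest probe set gave 5.25, 5.39 and 5.03 in PAX3-FKHR/GFP cells, against 4.75, 4.94 and 4.59 in GFP/+ cells, and 4.69, 5.03 and 5.14 in GFP- cells. The GFP positive groups were separate, whereas the GFP- samples overlapped both. The difference of 0.46 (SE 0.12) had an adjusted p of 0.124. Of its 4 probe sets, another was called higher by 0.81 (SE 0.13, adjusted p = 0.00982), with values of 3.75, 4.34 and 3.98 against 3.27, 3.14 and 3.24. In all samples that probe set lay below the median of its array, so Spry4 was called from 1 dim probe set only.

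Spred1 and Spred2 carry the EVH1 domain and inhibit RAS to ERK signalling at the membrane, Spred1 by recruiting neurofibromin. Both were bright in every group. Spred1 gave 10.68, 10.66 and 10.77 in PAX3-FKHR/GFP cells, against 10.46, 10.23 and 10.35 in GFP/+ cells, and 10.59, 10.51 and 10.55 in GFP- cells. The difference between the GFP positive groups was 0.36 (95% interval 0.16 to 0.55, adjusted p = 0.0855). Its 8 probe sets differed by -0.03 to 0.56, with 7 of the 8 positive and 0 called by limma. Spred2 gave 9.99, 10.14 and 10.12 in PAX3-FKHR/GFP cells, against 9.90, 9.76 and 9.77 in GFP/+ cells, and 9.94, 9.75 and 9.91 in GFP- cells. Its difference was 0.27 (95% interval 0.09 to 0.46, adjusted p = 0.21), and its 5 probe sets ranged from -0.12 to 0.27, with a mean over them that differed by 0.098.

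Of the ERK phosphatase genes, Dusp4 and Dusp5 were called higher and Dusp6 was not. Dusp4 encodes a nuclear phosphatase of MAP kinases, and it rose with the smallest spread of the 3 phosphatase genes. Its values were 9.91, 10.07 and 10.07 in PAX3-FKHR/GFP cells, against 9.02, 9.13 and 9.20 in GFP/+ cells, and 8.68, 8.59 and 8.68 in GFP- cells. The groups stood in 3 separate steps. The difference was 0.90 ± 0.086 (SE, adjusted p = 0.000256). Dusp5 encodes a nuclear phosphatase specific for ERK. It gave 8.05, 8.34 and 7.67 in PAX3-FKHR/GFP cells, against 6.96, 7.46 and 7.29 in GFP/+ cells, and 7.14, 7.05 and 7.10 in GFP- cells. The GFP positive groups did not overlap, but their samples were more spread than for Dusp4. The difference was 0.79 (SE 0.17, adjusted p = 0.0436). Leaving out PAX3-FKHR/GFP replicate 1, PAX3-FKHR/GFP replicate 2 or any GFP/+ replicate ended the call, at adjusted p of 0.102 to 0.247.

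Dusp6 encodes the cytoplasmic ERK phosphatase, a widely used readout of FGF signalling. It gave 9.61, 9.66 and 9.93 in PAX3-FKHR/GFP cells, against 8.97, 9.33 and 9.34 in GFP/+ cells, and 9.12, 9.16 and 9.14 in GFP- cells. The lowest PAX3-FKHR/GFP sample was still above the highest GFP/+ sample. The difference of 0.52 (95% interval 0.25 to 0.79) had an adjusted p of 0.0679 and was not called. It was called under 4 alternatives: all 9 samples in 1 fit (adjusted p = 0.0119), the fit on means over probe sets (0.044), probe sets above the median only (0.0347) and the replicate block (0.0309). The local pooled error test gave a difference of 0.329 and no call.

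Of the ETS effectors, Etv5 had the larger change. It gave 8.01, 8.17 and 8.35 in PAX3-FKHR/GFP cells, against 6.57, 6.66 and 6.55 in GFP/+ cells, and 7.63, 7.58 and 7.52 in GFP- cells. The 3 groups were widely separate, and GFP/+ cells were lowest. The difference of 1.58 ± 0.096 (SE, adjusted p = 1.22e-05) was measured in a bright probe set. Both other Etv5 probe sets were dim, and differed by 0.81 (adjusted p = 0.0427, called) and 0.48 (adjusted p = 0.117). The mean over the 3 probe sets differed by 0.958, which was still called. Etv4, its relative, gave 6.54, 6.44 and 6.64 in PAX3-FKHR/GFP cells, against 5.85, 6.14 and 6.12 in GFP/+ cells, and 6.33, 6.34 and 6.44 in GFP- cells. The difference of 0.50 (SE 0.1, adjusted p = 0.0335) sat at the fold limit. It lost its call without any 1 of the 6 samples, at adjusted p of 0.0985 to 0.151.

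Across all 28 probe sets, 7 were called higher and 0 lower with PAX3-FKHR, and 25 had a positive difference. The limma test called 0.884% of all probe sets higher. The 7 belonged to Spry1, Spry4, Dusp4, Dusp5, Etv4 and Etv5, the last with 2. Of the 28, 7 had a mean at or below 4.66, the median over all probe sets, and 2 of these were among the called ones. Probe sets of 1 gene did not all report the same size of change, as the plot of differences against level shows.

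**Figure D2:**
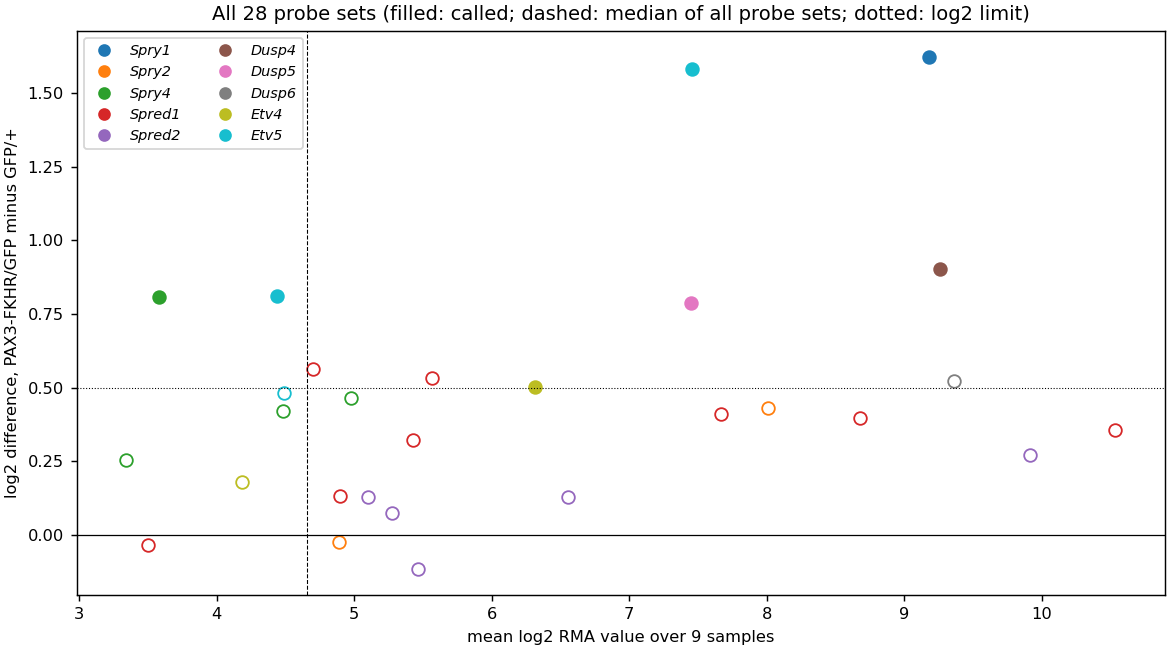
Log2 difference of PAX3-FKHR/GFP minus GFP/+ (vertical axis) against the mean log2 RMA value over 9 samples (horizontal axis) for the 28 probe sets, coloured by gene, with called ones filled. Etv5 ranges from 0.48 to 1.58 and Spred1 from -0.03 to 0.56 over their probe sets.

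Other cell types in the samples were read from marker lists. The mean log2 value of 10 differentiating muscle markers was 6.46 to 6.61 in PAX3-FKHR/GFP samples and 7.84 to 7.93 in GFP/+ samples, and 9 of the 10 were called lower with PAX3-FKHR. For 10 dermomyotome markers it was 8.70 to 8.94 in PAX3-FKHR/GFP, 8.35 to 8.36 in GFP/+ and 5.07 to 5.11 in GFP- samples. Of these, 5 were called higher (Pax7, Met, Lbx1, Tcf15 and Myf5) and 2 lower (Pax3 and Sim1) with PAX3-FKHR. The study lists each of them as changed in the same direction in limbs and/or somites, so this list cannot be read as cell makeup alone. Neural crest markers were at 8.70 to 8.94 in PAX3-FKHR/GFP and 8.53 to 8.59 in GFP/+ samples, with 1 of 6 called higher. Sclerotome markers were at 7.24 to 7.41 and 7.47 to 7.54 in the same groups, with 1 of 6 called higher and 2 lower, and neural tube markers at 6.12 to 6.32 and 6.41 to 6.53, with 1 of 6, Pax6, called lower (-0.74). Erythroid markers were at 6.72 to 6.79 and 6.45 to 6.53, with 1 of 5, Hbb-y, called higher (0.65, adjusted p = 0.0041). For each list named so far, neural crest included, the list means of PAX3-FKHR/GFP and GFP/+ samples did not overlap. Endothelial markers overlapped, at 5.0 to 5.05 and 5.03 to 5.15 in the same groups. Lateral mesoderm markers, at 4.6 to 4.62 and 4.64 to 4.71, did not overlap. Pax3 itself, whose intact allele is missing in PAX3-FKHR/GFP cells, had a mean of 8.29 there, against 9.20 in GFP/+ cells and 4.50 in GFP- cells. What these shifts of cell markers contributed to the differences of the 10 genes was not tested. In sorted bulk samples fewer cells of a type and less RNA per cell cannot be told apart.

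Against GFP- cells, the genes fell into different orders. In PAX3-FKHR/GFP cells 6 genes were called higher than in GFP- cells and 0 lower, where 2.63% of all genes were called higher and 5.2% lower. Their median log2 difference was 0.60, against 0.007 over all genes. The largest was 1.37 for Dusp4 (adjusted p = 4.06e-07), which was 2.58-fold. Spry1 differed by 1.26, Dusp5 by 0.92, Spry2 by 0.71, Etv5 by 0.60 and Dusp6 by 0.59. Dusp6 fell just under the fold limit, at 0.495, without PAX3-FKHR/GFP replicate 3. Spry4, Spred1, Spred2 and Etv4 differed by 0.27, 0.15, 0.22 and 0.17 and were not called. By probe sets 6 of 28 were called higher, against 1.99% of all, and no member was called lower by the local pooled error test or at an unadjusted p under 0.05.

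In GFP/+ cells, by contrast, 0 of the 10 genes were called higher than in GFP- cells and 1 lower, where limma called 1.92% of all genes higher and 5.05% lower. At an unadjusted p under 0.05 there were 2 higher and 4 lower, and the local pooled error test called 0 higher and 1 lower. The 1 gene was Etv5, with a log2 difference of -0.98 ± 0.067 (SE, adjusted p = 6.52e-06), which makes it 1.97-fold higher in GFP- cells. The mean over its 3 probe sets differed by -0.446 and was not called. By probe sets 1 of 28 was lower, against 3.24% of all. Dusp4 was higher in GFP/+ cells by 0.46 and Spry2 by 0.28, and Spry1 was lower by 0.37, each with an adjusted p under 0.05 but under the fold limit. Dusp4 reached the limit, at 0.512, without GFP/+ replicate 1. The median over the 10 genes was -0.12, against 0.008 over all genes. GFP/+ and GFP- samples overlapped for Spry4, Spred2, Dusp5 and Dusp6.

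**Figure D3:**
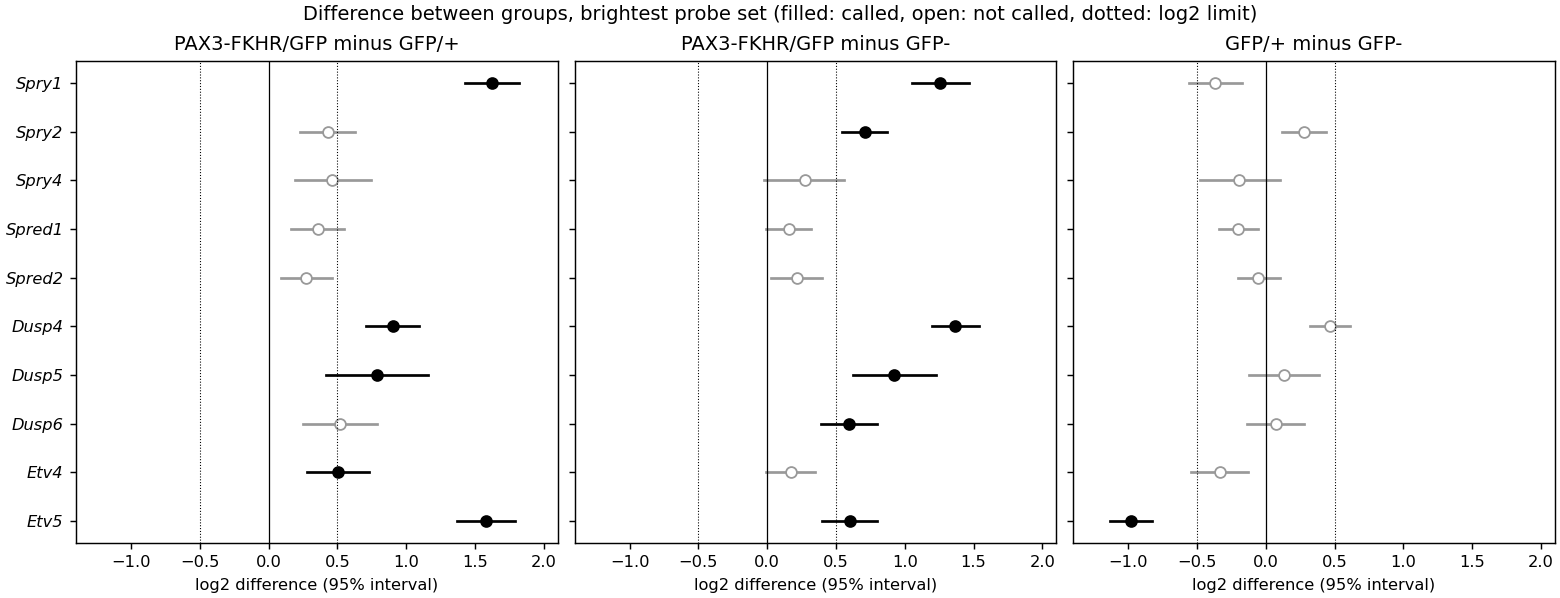
Log2 differences (horizontal axes, with 95% intervals) of the 10 genes for PAX3-FKHR/GFP minus GFP/+, PAX3-FKHR/GFP minus GFP- and GFP/+ minus GFP-, called genes filled, dotted lines at the log2 limit of 0.5. All 10 are above 0 in the first panel, and Etv5 alone is called in the third, at -0.98.

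These comparisons share samples, so the values are side by side and are no support for each other. The GFP- cells also differed widely in makeup. Erythroid markers averaged 6.72 to 6.79 in PAX3-FKHR/GFP and 6.45 to 6.53 in GFP/+ samples, against 11.04 to 11.09 in GFP- samples, and surface ectoderm markers 5.41 to 5.51 and 5.32 to 5.41, against 7.85 to 7.90. The part of these cells in the levels of the 10 genes was not tested.

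The genes around them in the pathway are set against the 1.31% of all genes called higher and 0.715% called lower with PAX3-FKHR. Of 11 FGF ligand genes, 2 were called higher, Fgf5 with a mean of 5.94 in PAX3-FKHR/GFP and 3.98 in GFP/+ cells (difference 1.96, adjusted p = 5.6e-06) and Fgf8 with 5.07 and 3.61 (1.46, adjusted p = 0.00189). Both GFP/+ means lay below the median of 4.66, and with the mean over probe sets Fgf5 differed by 1.051, still called. Fgf3 (0.01) and Fgf4 (0.11) were not called. Of 5 receptor genes, 0 were called higher and 1 lower by limma, with 1 and 2 at an unadjusted p under 0.05, and the local pooled error test called 0 higher and 1 lower. Fgfr3 differed by -0.57 (adjusted p = 0.0175), a call that ended when replicate 1 or 2 of PAX3-FKHR/GFP, or 2 or 3 of GFP/+, was left out, at an adjusted p of up to 0.139. Neither Fgfr1 (0.38) nor Fgfr2 (-0.36) passed. Fgfr4, which the study lists as up-regulated in limbs and/or somites, differed by -0.05 in its brightest probe set. That probe set was level in all groups, with means of 5.84 in PAX3-FKHR/GFP, 5.89 in GFP/+ and 5.88 in GFP- cells. No other Fgfr4 probe set is given here, so a change of Fgfr4 could have been missed.

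Of 12 measured genes of the RAS to ERK cascade, limma called 0 in either direction in each of the 3 comparisons, and the local pooled error test called 0. At an unadjusted p under 0.05, 0 differed between PAX3-FKHR/GFP and GFP/+ cells. Among them the adaptors Grb2 (0.19) and Frs3 (0.12) were not called. Of 10 other ETS genes 0 were called with PAX3-FKHR by limma or by the local pooled error test, with 1 higher and 0 lower at an unadjusted p under 0.05. Etv2 differed by -0.13 and Etv3 by 0.12. The study lists Etv1 and Etv2 as up-regulated in limbs and/or somites, but Etv1 was not read here and is not among the 10. Of 10 other Sprouty, Spred and phosphatase genes 1 was called higher, Dusp1, an immediate early MAP kinase phosphatase, at 0.53 (adjusted p = 0.0441). Leaving out any 1 of 5 samples, replicates 2 and 3 of PAX3-FKHR/GFP and each of GFP/+, ended that call, at an adjusted p of up to 0.246. The relatives Spry3 (0.03) and Spred3 (0.14) were not called.

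Of 14 other modulators of FGF or receptor tyrosine kinase signals, 2 were called higher with PAX3-FKHR, again beside 1.31% of all genes. Il17rd, which encodes the FGF antagonist Sef, averaged 10.17 in PAX3-FKHR/GFP and 8.89 in GFP/+ cells (difference 1.28, adjusted p = 9.4e-05). Like Etv5 it was lower in GFP/+ than in GFP- cells, by 0.51 on the log2 scale. Lrig1, a receptor tyrosine kinase inhibitor, averaged 10.28 and 9.49 (difference 0.79, adjusted p = 0.003), and leaving out replicate 2 of PAX3-FKHR/GFP ended its call (adjusted p = 0.051). Flrt1 (0.39) and Flrt2 (-0.03) were not called. Of 11 genes known to be induced through ERK, 3 were called higher, where 1.31% of all genes were, and 10 had a positive difference. The transcription factors Egr2 (1.39, adjusted p = 3.6e-05) and Fosl2 (1.23, adjusted p = 0.000132) and the receptor Epha2 (0.67, adjusted p = 0.00775) were the 3. With the mean over probe sets Fosl2 differed by 0.533, just above the limit. Epha2 was not called once replicate 2 of PAX3-FKHR/GFP (adjusted p = 0.0622) or 3 of GFP/+ (0.0628) was left out. Egr1 (0.24) and Fos (0.25), which were bright in all groups, were not called.

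**Figure D4:**
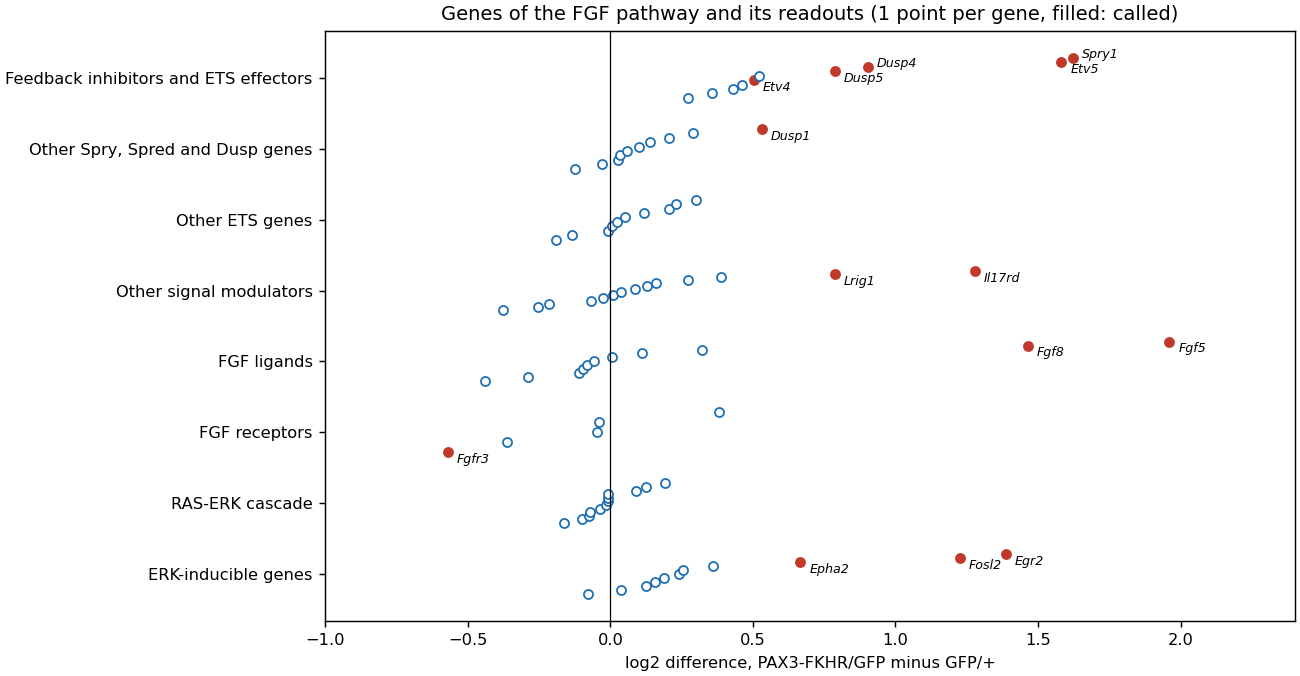
Log2 difference of PAX3-FKHR/GFP minus GFP/+ (horizontal axis) for each measured gene (1 point) of the 8 lists (rows), with called genes filled and named. The row of feedback inhibitors and ETS effectors has 5 called genes, and the RAS-ERK cascade has 0 of 12.

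The genes whose log2 values ran most like those of the strongest member of each family over the 9 samples were named as a description. For Spry1 they were Crtac1 (r = 0.989), Klf4 (0.988) and Ppfibp2 (0.979). For Dusp4 they were Dbp (0.996), Lurap1l (0.995) and Npepl1 (0.994). For Etv5 they were Ankrd6 (0.983), Socs3 (0.983) and Mbnl3 (0.982). The 9 samples are 3 groups of 3, so r mostly ranks genes by their group means. Ppfibp2, for example, averaged 9.19 in PAX3-FKHR/GFP, 6.64 in GFP/+ and 7.62 in GFP- cells, the same order as Spry1 and Etv5.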

How the data were processed

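Affymetrix mouse genome arrays were hybridized for 9 samples, 3 in each of 3 groups taken from the labels. According to the study's methods, RNA of sorted cells was amplified in 2 cycles from the 3′ end and hybridized, and samples were biological replicates. The authors deposited log2 values made with RMA, which corrects background, quantile normalizes arrays and summarizes probes, so a shift of all transcripts would not be seen. Its version and the set of arrays normalized in 1 run were not given in the sources used. The label protocol speaks of forelimb buds where titles and tissue give interlimb somites, and samples were taken as somites. Absence calls, by which the study discarded probe sets, were not used here.

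Leaving out 64 controls of 45101 probe sets left 45037. The platform annotation gave 34945 of these 1 gene symbol, 932 several and 9160 none here. A gene was read from its brightest probe set with a single symbol. Etv1 shares its probe sets with another symbol and was not read, and 6 of the 18 genes written for the RAS-ERK list were not analysed here. Array medians were 4.63 to 4.68, and samples correlated at 0.9962 to 0.9979 within groups. The number of arrays limits the precision. Differences were tested two-sided with limma 3.58.1 in R 4.3.3 (lmFit, eBayes with an intensity trend) on the 6 samples of each comparison, and the script was tested on simulated data. The study's local pooled error test, in a version written here, other filters and normalizations, a replicate block and leaving out each sample were alternatives. Every member was named, and of each other list up to 4 called and 2 uncalled genes. Fgfr4 was named in addition, since the study lists it. The genes and lists were chosen with earlier results of these data known. Tables were made with Python 3.11.15 and pandas 2.3.3.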

Additional observations from a re-analysis of the deposited data

How the results depend on the processing

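Spry1, Dusp4 and Etv5 were called higher with PAX3-FKHR under every alternative run, those without 1 sample included. The count of 5 genes called higher rested on them and on Dusp5 and Etv4. It was 3 after a further quantile normalization, 4 by the local pooled error test, without the intensity trend or with a limit of log2(1.5), and 3 to 4 without 1 sample. It was 6 with no fold limit, with all 9 samples in 1 fit and with probe sets above the median only, and 5 in the rest. The 7 called probe sets were 3 to 6 without 1 sample and 5 to 10 otherwise, with 10 from all 9 samples in 1 fit. Dusp5 was lost without the trend (adjusted p = 0.0532) and after quantile normalization (0.0608). Etv4 was lost at the limit of log2(1.5), after quantile normalization (0.473), with the mean over probe sets (0.341) and by the local pooled error test (0.425, adjusted p = 0.502).

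Between GFP/+ and GFP- cells, without a fold limit 2 genes were higher, 2 lower and 4 probe sets called, and with the mean over probe sets 0 were lower. Without 1 sample 0 to 1 genes were higher and 1 to 2 probe sets called. Against GFP- cells the 6 genes with PAX3-FKHR were 5 to 6 without 1 sample, and 5 with the mean over probe sets, which took Spry2 just under the limit. Probe sets called were 6, against 5 to 8 without 1 sample.

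Near 0, signs turned. Spred2 in GFP/+ minus GFP- was 0.078 with the mean over probe sets. For PAX3-FKHR/GFP minus GFP/+, that mean gave 0.052 for Flrt2, -0.016 for Fgf3 and -0.080 for Fgf4, and the local pooled error test 0.058 for Flrt2 and 0.000 for Fgf4. Without 1 sample Spry3 was -0.023 to 0.088, Etv3 -0.033 to 0.245, Flrt2 -0.078 to 0.060, Fgf3 -0.063 to 0.079 and Fgf4 -0.043 to 0.197. Dusp1 was lost without the trend (adjusted p = 0.051) and with centred arrays (0.0547), Lrig1 (0.455) and Fgfr3 (-0.307) with the mean over probe sets, and Epha2 by the local pooled error test (0.0592). That mean also gave 0.256 for Flrt1 and -0.201 for Fgfr2, neither called before or after, and without PAX3-FKHR/GFP replicate 3 Fos was 0.155. Where not stated, the cause was not tested. Fgf5 and Fgf8 were not among the probe sets above the median and so were not called there.

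Replicate numbers did not pair the samples of PAX3-FKHR/GFP and GFP/+, since same-numbered samples deviated together at r of only -0.096 to 0.079. For GFP/+ and GFP- samples r was also low, at 0.009 to 0.094. In replicates 1 and 2 it was still above each r of that GFP/+ sample with the other GFP- samples. For PAX3-FKHR/GFP and GFP- samples r was -0.040 to 0.105. In replicate 3, at 0.105, it was above the highest r of that PAX3-FKHR/GFP sample with the other GFP- samples, 0.006. In replicates 1 and 2 it was not. With the replicate block 5 genes were still called higher with PAX3-FKHR, with Dusp6 gained (adjusted p = 0.0309) and Etv4 lost (0.0507), and 7 probe sets. Against GFP- cells 9 probe sets were called with the block in PAX3-FKHR/GFP cells, where 6 were without it.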
